A study of Caenorhabditis elegans with 6 samples.

Results

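Touch receptor neurons are the mechanosensory neurons with which Caenorhabditis elegans feels gentle touch along the body, and 10 genes of their identity and function were followed here: the transcription factor genes unc-86 and mec-3, the channel genes mec-4, mec-10, mec-2 and mec-6, the microtubule genes mec-7, mec-12 and mec-17, and mec-18. They were taken by name from a table of 46589 genes, of which 28243 had at least 1 read, and each of the 10 names matched 1 gene. RNA came from whole adult wild-type animals of the strain Bristol N2, sampled 5 days after the L4 larval stage. In 3 samples the agent was the control, bacteria carrying the vector L4440, and in 3 it was bcat-1 RNAi, bacteria of the strain HT115 making double-stranded RNA against bcat-1, the gene of the enzyme that starts the breakdown of branched-chain amino acids. According to the methods, feeding started in young adults and progeny were washed away every day. All animals therefore shared the strain, the age and the bacterial background, and no transgene or mutation was involved.

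In these neurons the POU homeodomain protein UNC-86 switches on mec-3, which encodes a LIM homeodomain protein, and both proteins then bind together at the genes that give the cell its touch function. MEC-4 and MEC-10 are the pore subunits of a sodium channel of the degenerin family. MEC-2, a stomatin-like membrane protein, and MEC-6, a membrane protein related to paraoxonases, act with that channel. MEC-7 and MEC-12 are the beta- and alpha-tubulin of the unusually wide microtubules of these cells, and MEC-17 acetylates alpha-tubulin. UNC-86 also acts in many other neurons and in dividing neuroblasts of the embryo and larva, so that its transcript is not particular to touch neurons.

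Total counts lay between 32784443 and 43274827 in the control libraries and between 38347771 and 44137496 in those labelled bcat-1 RNAi, and 19961 to 21381 genes had a read in the former against 24092 to 24418 in the latter. Levels are given as CPM, counts relative to library size, after TMM scaling, unless they are named as RPKM, which are also set against exon length. Reads counted at bcat-1 were not called lower under the label of its RNAi. The counts do not separate transcripts of the worm gene from any reads of the RNAi construct, which carries bcat-1 sequence. The level was 135.0, 135.2 and 162.2 CPM in the controls against 223.0, 102.1 and 287.0 CPM, a log2 fold change of 0.50 ± 0.30 (SE) with an adjusted p of 0.169 in edgeR's quasi-likelihood test. The groups are therefore named by their labels, and each direction given is that of samples labelled bcat-1 RNAi, called RNAi libraries, relative to samples labelled control. Whether the 3 samples of a group were grown as separate cultures is not stated, and the p-values speak only to the spread among these particular samples, which may be technical. In control replicate 1 the summed level of 12 larval moulting genes was 159.0 CPM, against 85.4 and 83.8 CPM in the other controls, and the called values that leaving it out moved by more than 1.5 times are also given without it.

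Of the 10 genes, 6 were higher in the RNAi libraries at an adjusted p under 0.05 (unc-86, mec-12, mec-7, mec-6, mec-2 and mec-10), none was lower, and mec-4, mec-18, mec-3 and mec-17 were not called. Among all 16391 genes tested 61.6% were called, 36.0% higher and 25.6% lower. Among the 8748 tested genes whose mean level lay between the lowest and the highest of the 10, the shares were 45.9% and 14.4%, so that 6 of 10 stood against a background that was itself high. The median log2 fold change was 1.46 over the 10 genes and 0.15 over all tested genes. All 10 were above the filter on low counts in every library of both groups, so none was tested through 1 group alone. The values of the groups did not overlap for 7 of the 10, always with the RNAi libraries above, against 40.2% of all tested genes with that arrangement and 71.2% without overlap in either direction. RNA was from whole animals, in which a change in the number of cells of a type and a change in RNA per cell cannot be told apart. For none of the 10 genes can the cells from which its reads came be told.

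**Figure D1:**
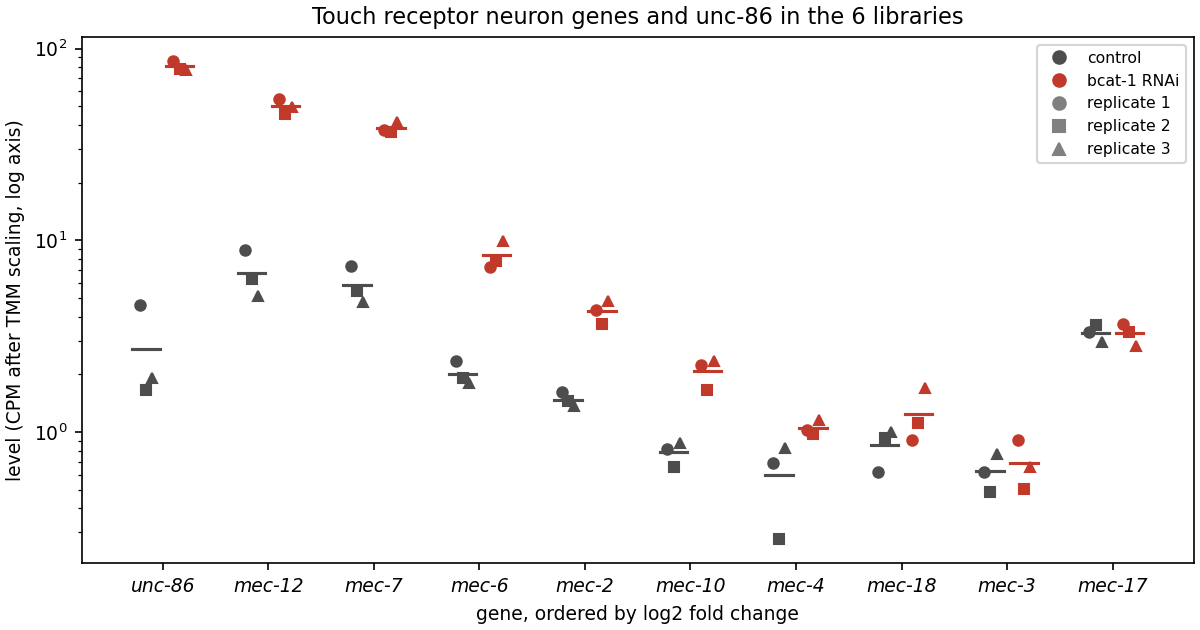
Level of each of the 10 genes in the 6 libraries, in CPM after TMM scaling on a log axis; symbols are replicates, grey for control and red for bcat-1 RNAi, and the short lines are group means (n = 3). The red points of unc-86 lie between 77.2 and 86.5 CPM, above all grey points at 1.66 to 4.58 CPM, whereas those of mec-3 and mec-17 mix with the grey ones.

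The regulator unc-86 (C30A5.7; WBcel235, chrIII:8212740-8216336, minus strand) showed the largest rise of the 10. Its level was 4.58, 1.66 and 1.91 CPM in the controls, from 185, 48 and 74 reads, and 86.5, 78.4 and 77.2 CPM in the RNAi libraries, from 3727, 3714 and 3409 reads. The RNAi libraries lay close together, and every one was far above every control. The group means were 2.72 ± 1.62 and 80.7 ± 5.05 CPM (SD, n = 3), a 29.7-fold ratio, and the fitted log2 fold change was 4.87 ± 0.33 (SE; 95% interval 4.12 to 5.61; adjusted p = 8.37e-06, edgeR). Of the 16391 tested genes, 0.238% had a larger rise. The highest control was replicate 1, the library with the higher moulting gene level; without it the log2 fold change was 5.475, and the part of that library's composition in the control level was not tested.

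The partner gene mec-3 (F01D4.6, chrIV:10458816-10461867, minus strand), which UNC-86 activates in touch neurons, had low levels in every library. The controls had 0.619, 0.485 and 0.772 CPM and the RNAi libraries 0.905, 0.507 and 0.657 CPM, from 14 to 39 reads, and the groups overlapped. The log2 fold change was 0.12 ± 0.30 (SE) with a 95% interval from -0.56 to 0.80 and an adjusted p of 0.741 (edgeR), so that a change of the size seen for unc-86 lay outside the interval while a modest one in either direction could not be detected at this depth. Per exon length, the ratio of unc-86 to mec-3 was 6.565, 3.042 and 2.188 in the controls and 84.79, 137.3 and 104.3 in the RNAi libraries. These ratios did not overlap (exact permutation test, two-sided, p = 0.1, the smallest that 3 against 3 samples allow).

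Of the pore subunit genes, mec-10 (F16F9.5, chrX:8465760-8470314, minus strand) was higher in the RNAi libraries and mec-4 (T01C8.7, chrX:16803321-16807115, minus strand) was not called. The level of mec-10 was 0.817, 0.658 and 0.875 CPM in the controls, against 2.23, 1.65 and 2.36 CPM with the RNAi label, a log2 fold change of 1.39 ± 0.23 (SE; adjusted p = 0.00101, edgeR). The lowest RNAi library was thus above the highest control. The level of mec-4 was 0.693, 0.277 and 0.824 CPM in the controls, from 28, 8 and 32 reads, and 1.02, 0.972 and 1.16 CPM in the RNAi libraries, from 44, 46 and 51 reads. The mec-4 values did not overlap either, but the log2 fold change of 0.77 ± 0.33 (SE; 95% interval 0.02 to 1.51) had an unadjusted p of 0.0447 and an adjusted p of 0.0687 (edgeR). It was called when libraries were scaled by size only (1.01, adjusted p = 0.0428) and without control replicate 3 (1.03, adjusted p = 0.0345). The ratio of mec-10 to mec-4 in RPKM was 1.52 ± 0.72 in the controls and 1.95 ± 0.25 in the RNAi libraries (SD, n = 3; exact permutation p = 0.4), a difference within the spread. A count overlap limits mec-4: 78 bases of its exons lie opposite exons of aak-2, a kinase subunit gene with 1486 to 2523 reads per library, and the kit does not mark strand.

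The channel partners mec-6 (W02D3.3, chrI:6724867-6728330, plus strand) and mec-2 (F14D12.4, chrX:5567754-5590830, plus strand) were both higher. The level of mec-6 was 2.35, 1.90 and 1.80 CPM in the controls, against 7.27, 7.81 and 9.97 CPM with the RNAi label, a log2 fold change of 2.04 ± 0.19 (SE; adjusted p = 4.15e-05, edgeR). The level of mec-2 was 1.61, 1.45 and 1.36 CPM against 4.32, 3.67 and 4.8 CPM, a log2 fold change of 1.53 ± 0.19 (SE; adjusted p = 0.000179, edgeR). For both genes every RNAi library was above every control. Exons of mec-6 share 35 bases with exons of lbp-6 on the opposite strand, a fatty acid binding protein gene with 3100 to 4209 reads per library, so that a few of the mec-6 reads could belong to that gene. The gene mec-2 has 17 annotated transcripts, whose reads the table sums.

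The tubulin genes rose most after unc-86. The alpha-tubulin gene mec-12 (C44B11.3, chrIII:3131574-3139234, minus strand) had 8.91, 6.30 and 5.097 CPM in the controls, against 54.6, 45.9 and 49.6 CPM with the RNAi label, a log2 fold change of 2.88 ± 0.20 (SE; adjusted p = 8.61e-06, edgeR). The beta-tubulin gene mec-7 (ZK154.3, chrX:7774856-7776689, minus strand) had 7.33, 5.44 and 4.76 CPM in the controls, against 37.8, 36.7 and 41.5 CPM with the RNAi label, a log2 fold change of 2.72 ± 0.17 (SE; adjusted p = 5.27e-06, edgeR). Both moved by a similar amount, and the RPKM ratio of mec-7 to mec-12 was 0.897 ± 0.058 in the controls and 0.797 ± 0.077 in the RNAi libraries (SD, n = 3; exact permutation p = 0.2). Exons of mec-12 share 76 bases with those of Y53G8B.1 on the other strand, which had only 59 to 81 reads per library.

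The acetyltransferase gene mec-17 (F57H12.7, chrIV:7983802-7987183, minus strand) had overlapping levels in the groups and was not called. The controls had 3.32, 3.60 and 2.96 CPM and the RNAi libraries 3.67, 3.34 and 2.81 CPM. The log2 fold change was -0.01 ± 0.18 (SE) with a 95% interval from -0.41 to 0.40 (adjusted p = 0.98, edgeR), which leaves out changes of the size seen for mec-7 and mec-12. Relative to mec-12, whose product MEC-17 acetylates, its RPKM ratio went from 0.836 ± 0.194 to 0.108 ± 0.013 (SD, n = 3; no overlap, exact permutation p = 0.1). The second alpha-tubulin acetyltransferase gene of the worm, atat-2, was higher in the RNAi libraries (log2 2.51 ± 0.16, SE; adjusted p = 5.83e-06), and the RPKM ratio of mec-17 to atat-2 went from 1.31 ± 0.07 to 0.229 ± 0.007 (SD, n = 3; exact permutation p = 0.1). The reads of mec-17 are uncertain, because 51 bases of its exons lie opposite exons of arf-5, a small GTPase gene with 9984 to 14460 reads per library, named arf-3 in the table.

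The remaining gene, mec-18 (C52B9.9, chrX:4271165-4274216, minus strand), encodes a protein related to acyl-CoA ligases that is needed for touch sensitivity. It had 0.619, 0.935 and 1.004 CPM in the controls, against 0.905, 1.12 and 1.70 CPM with the RNAi label, with overlap between the lowest RNAi library and the upper controls. The log2 fold change was 0.55 ± 0.30 (SE; 95% interval -0.13 to 1.23; adjusted p = 0.141, edgeR).

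**Figure D2:**
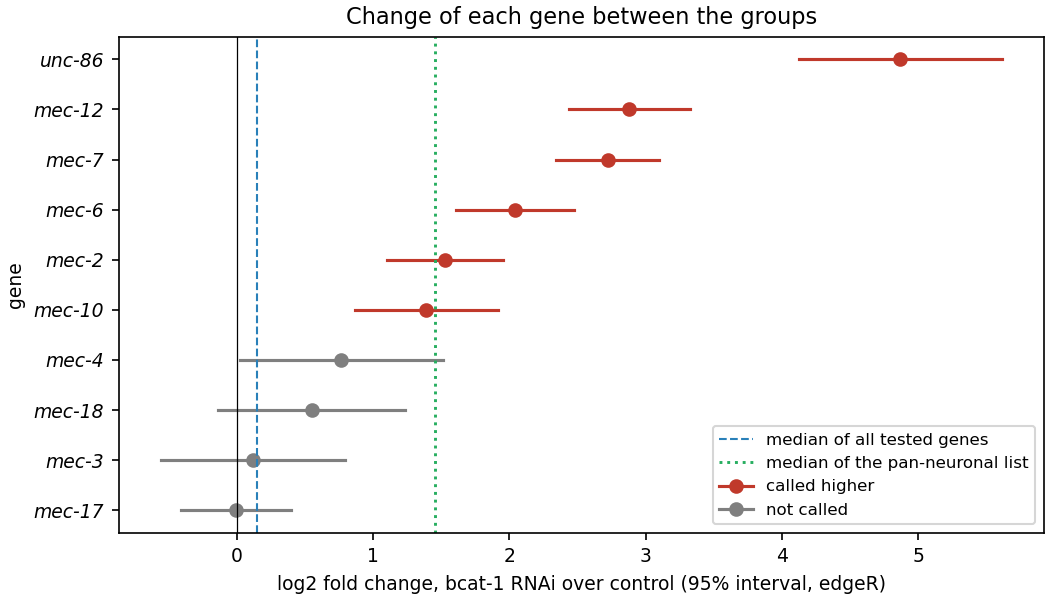
Log2 fold change of each gene, libraries labelled bcat-1 RNAi over control, with the 95% interval from edgeR; red marks genes called higher, the dashed line the median of all tested genes and the dotted line the median of 16 pan-neuronal genes. The interval of unc-86 (4.12 to 5.61) lies to the right of that of every other gene, and those of mec-18, mec-3 and mec-17 span 0.

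Per exon length, the 10 genes differed in level by more than 10-fold and their order changed between the groups. In the controls mec-12 (3.89 RPKM), mec-7 (3.45 RPKM), mec-17 (3.10 RPKM) and unc-86 (1.72 RPKM) led, followed by mec-6, mec-2, mec-3, mec-18, mec-10 and mec-4 at 1.23 down to 0.237 RPKM. Among neighbours in that order, mec-6 and mec-2 alone did not overlap in their replicate values. In the RNAi libraries unc-86 (60.1 RPKM) came first, then mec-12 (34.1 RPKM), mec-7 (27.1 RPKM), mec-6 (6.10 RPKM), mec-17 (3.66 RPKM) and mec-2 (1.84 RPKM), with no overlap between neighbours down to mec-10 (0.961 RPKM). From mec-10 through mec-18, mec-3 and mec-4 neighbouring values overlapped.

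The summed RPKM of the 10 genes was 15.3 ± 3.29 in the controls and 135.6 ± 8.52 in the RNAi libraries (SD, n = 3). The share of unc-86 in that sum was 15.3%, 7.41% and 9.21% in the controls and 45.4%, 45.4% and 42.4% in the RNAi libraries. The share of mec-12 was 25.2% ± 2.40 and 25.1% ± 0.96 (SD, n = 3; exact permutation p = 1.0), hence of the same size in both groups. The share of mec-17 went from 20.8% ± 3.79 to 2.71% ± 0.34, and that of mec-7 from 22.5% ± 0.73 to 19.98% ± 1.38 (SD, n = 3; exact permutation p = 0.1 for each, without overlap). A smaller share is not a lower level, because the sum itself rose and unc-86 took more of it. The level of mec-7 was higher in the RNAi libraries and that of mec-17 was not called.

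Whether the 10 genes moved differently from neuronal transcripts in general was examined next, since transcripts of many neurons were higher in the RNAi libraries. Of 16 pan-neuronal genes, many of which encode parts of the synaptic vesicle and axonal transport machinery, 14 (87.5%) were called higher and none lower. Not called were snb-1 and unc-11 (list median log2 1.45). The share called higher among all tested genes was 36.0%. The largest rises in this list were those of unc-10 (2.70), unc-13 (2.42), sng-1 (2.13) and unc-31 (2.12). The mean log2 CPM of the list was 3.57, 3.47 and 3.50 in the controls and 4.94, 4.87 and 4.58 in the RNAi libraries, a difference of 1.29 without overlap (exact permutation p = 0.1).

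**Figure D3:**
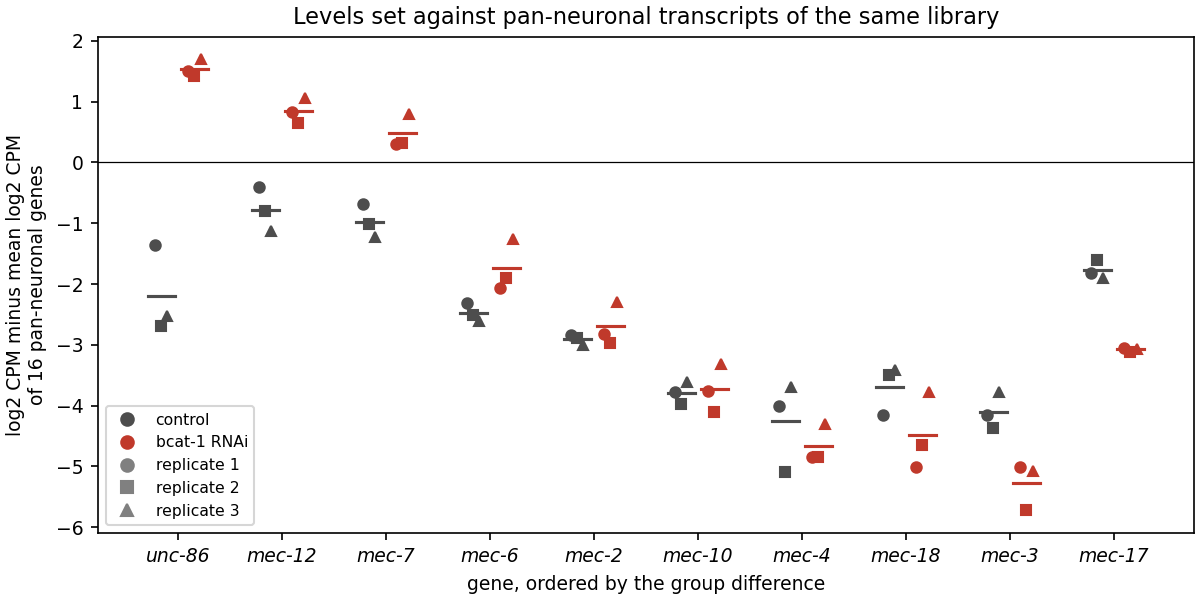
Log2 CPM of each gene minus the mean log2 CPM of 16 pan-neuronal genes in the same library; symbols are replicates, grey for control and red for bcat-1 RNAi, and short lines are group means (n = 3). The values of unc-86, mec-12, mec-7 and mec-6 are higher in red without overlap and those of mec-3 and mec-17 are lower without overlap. The mean of the 16 genes was itself 1.29 higher in the RNAi libraries, and mec-3 and mec-17 are lower only relative to it.

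Measured against the mean of that list in the same library, the 10 genes fell into 3 kinds by the difference between the groups. Higher in the RNAi libraries by this measure, unc-86 went from -1.36, -2.69 and -2.53 log2 units in the controls to 1.495, 1.42 and 1.69 in the RNAi libraries. The difference was 3.73 for unc-86, 1.62 for mec-12, 1.45 for mec-7 and 0.73 for mec-6, and none of these genes overlapped between the groups. Of these genes, mec-6 stayed below the list mean in every library. The differences of mec-2 (0.21, p = 0.4), mec-10 (0.06, p = 0.9), mec-4 (-0.41, p = 0.4) and mec-18 (-0.79, p = 0.2) came with overlapping groups (exact permutation tests). Lower in the RNAi libraries by this measure, mec-3 differed by -1.17 and mec-17 by -1.30, each without overlap. The list mean itself was 1.29 higher in the RNAi libraries, so a gene of unchanged level falls by about that much on this measure. The levels of mec-3 and mec-17 were not called changed (log2 0.12 and -0.01), so these values do not show a decrease of either. For the 6 genes without overlap the exact two-sided permutation p was 0.1, the smallest possible, and 0.167 after Benjamini-Hochberg adjustment over the 10 tests, so none passed 0.05 and none could have.

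Other genes that act in touch sensitivity or mark touch neurons gave a similarly mixed picture. The cells from which their reads came cannot be told, and crt-1 had a mean of 1346 CPM in the controls. Of 11 further genes that act in touch sensitivity or mark these cells, 6 were called higher, mec-15 was lower, and mec-5, mec-9, mtd-1 and crt-1 were not called (median log2 0.99). The highest were eat-4, the vesicular glutamate transporter gene of these and other neurons (0.978 ± 0.23 to 7.38 ± 3.1 CPM, log2 2.90, adjusted p = 0.000172), poml-1, a paraoxonase-like relative of mec-6 (log2 2.28), mec-14, an aldo-keto reductase gene (log2 1.94), and ptl-1, the tau-like microtubule-binding protein gene (7.38 ± 0.26 to 23.99 ± 4.6 CPM, log2 1.70). The levels of poml-1 were under 0.4 CPM in the mean of either group. In the controls poml-1 had 3, 2 and 3 reads and mec-14 had 4, 5 and 6 reads. These were under the filter on low counts, so that both genes were tested only through the RNAi libraries. The F-box protein gene mec-15 went from 131.6 to 91.9 CPM (log2 -0.52, adjusted p = 0.003).

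Of 10 transcription factor genes that act on touch neuron fate before or beside UNC-86 and MEC-3, 8 (80.0%) were called higher and none lower. Not called were alr-1 and egl-5 (list median log2 1.84). The share called higher among all tested genes was 36.0%. The zinc finger gene egl-46, which together with egl-44 keeps cells from the touch neuron fate, went from 3.12, 1.35 and 1.24 CPM to 39.2, 34.6 and 46.4 CPM (log2 4.37 ± 0.32, SE; adjusted p = 1.15e-05). Control replicate 1 was its highest control, and without that library the log2 fold change was 4.94. Its partner egl-44, a TEA domain factor gene, rose less (22.5 ± 2.7 to 47.9 ± 2.2 CPM, log2 1.09), and the RPKM ratio of egl-46 to egl-44 went from 0.145 ± 0.065 to 1.47 ± 0.22 (SD, n = 3; exact permutation p = 0.1). The zinc finger homeobox gene zag-1 (log2 3.00), the proneural gene lin-32, which acts upstream of unc-86 in several lineages (2.21), and the Hox gene ceh-13 (1.88) were also higher.

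Genes that depend on UNC-86 in neurons other than touch neurons were measured as well. Of 10 in the table, 7 were called higher, cat-4 and bas-1 were lower, and unc-17 was not called (median log2 1.36). The largest changes were those of the vesicular monoamine transporter gene cat-1 (0.482 ± 0.17 to 4.25 ± 1.1 CPM, log2 3.10), the ARID factor gene cfi-1 (2.40), the acetylcholine receptor subunit gene des-2 (2.19) and the tryptophan hydroxylase gene tph-1 (2.13). Only 4, 8 and 5 reads of tph-1 were counted in the controls, near or under the filter on low counts. The decreases of cat-4, which makes a cofactor for monoamine synthesis (log2 -0.58), and of the decarboxylase gene bas-1 (log2 -0.45) were not called with scaling by library size only, nor without control replicate 1 and RNAi replicate 3 together. The call of bas-1 was also lost without any single library other than control replicate 3.

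**Figure D4:**
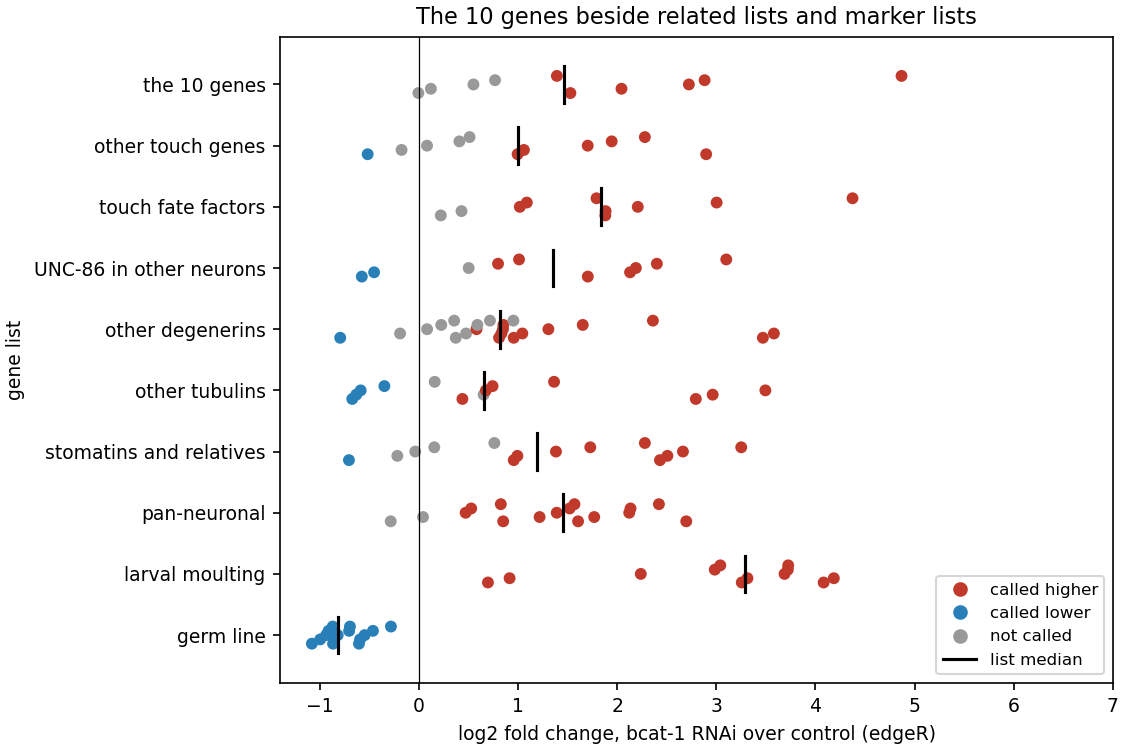
Log2 fold change (edgeR) of every tested gene in the 10 followed genes, in lists of related genes and in marker lists; red points were called higher, blue lower and grey not called, and the black lines are list medians. The larval moulting genes have the list median furthest to the right (3.29), and all 15 germ line genes lie to the left of 0.

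The relatives of the channel, tubulin and stomatin genes did not move as blocks. Of 22 other degenerin genes tested, 12 were called higher (54.5%, against 36.0% of all tested genes), del-6 was lower and 9 were not called (median log2 0.82). Among the 12, unc-8 (9, 5 and 9 reads in the controls) and egas-4 (11, 7 and 16 reads) passed the filter on low counts only through the RNAi libraries. The count of higher genes was 8 without control replicate 1 and 7 without that library and RNAi replicate 3 together. The largest rises were those of del-2 (3.58), del-3 (3.47), del-4 (2.36) and asic-2 (1.65), all from less than 1 CPM in the controls. Of the close relatives of mec-4 and mec-10, deg-1, whose gain-of-function form kills neurons, went from 1.66 ± 0.12 to 2.99 ± 0.18 CPM (log2 0.85, adjusted p = 0.00299), and del-1 was not called (log2 0.59, adjusted p = 0.0991). Among 14 stomatin and paraoxonase-like genes, 9 (64.3%) were called higher, with unc-24 (log2 3.25), unc-1 (2.66), atat-2 (2.51) and sto-5 (2.43) in front. Of these 9, poml-1 (3, 2 and 3 reads in the controls) and sto-6 (14, 8 and 10 reads) passed the filter on low counts only through the RNAi libraries. This list of 14 also holds the tubulin acetyltransferase gene atat-2. In the same list poml-2 was lower (-0.71), a call lost without any single library and with upper quartile or library size scaling.

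Among 13 other tubulin genes, 7 (53.8%) were called higher and 4 (30.8%) lower, against 36.0% and 25.6% of all tested genes. The higher ones were led by tba-8 (log2 3.49), tbb-4 (2.96), tba-6 (2.79) and tbb-6 (1.36), while the 4 abundant isotypes tbb-1 (-0.67), tba-2 (-0.63), tbb-2 (-0.59) and tba-1 (-0.35) were lower, tba-1 losing its call without any single library other than RNAi replicate 3. In the controls tba-8 had 5, 3 and 1 reads, all under the filter on low counts. It was thus tested only through the RNAi libraries. The beta-tubulin gene tbb-4, which is used in ciliated neurons, had 23.3, 6.30 and 7.18 CPM in the controls, against 96.2 ± 7.4 CPM with the RNAi label (SD, n = 3), and without control replicate 1 its log2 fold change was 3.82. With mec-12 up and abundant isotypes down, mec-12 made up 0.277% ± 0.089 of all alpha-tubulin RPKM in the controls and 2.79% ± 0.32 in the RNAi libraries. For mec-7 the share of all beta-tubulin RPKM was 0.199% ± 0.051 and 1.86% ± 0.47 (SD, n = 3; exact permutation p = 0.1 for each).

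Markers of other cell types and stages moved with the groups, and their part in the values of the 10 genes was not tested. Among all tested genes 36.0% were called higher and 25.6% lower. All 12 larval moulting genes were called higher, or 11 without control replicate 1 (median log2 3.29), led by ptr-4 (4.19), the cuticle collagen gene dpy-7 (4.08), sqt-1 (3.72) and mlt-8 (3.72). Their summed level was between 83.8 and 159.0 CPM in the controls and between 828 and 1049 CPM in the RNAi libraries, and none of them was at 0 in any library. All 15 germ line genes were called lower, or 14 after upper quartile scaling and 13 when only library size was used (median log2 -0.82), led by gld-1 (-1.08), oma-2 (-1.0), fbf-2 (-0.94) and nos-2 (-0.91), with summed levels of 6565 to 8015 CPM and 3463 to 4271 CPM. The summed level of the pan-neuronal list was 533.5 to 545.4 CPM in the controls and 675.4 to 861.1 CPM in the RNAi libraries.

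The 5 genes whose levels over the 6 libraries were most like those of unc-86 were F09F9.4, Y54E2A.9, aexr-1, hil-7 and C05E7.3. They had the smallest root mean square difference in centred log2 CPM among 12870 genes with a mean of at least 1 CPM, from 0.185 for F09F9.4 to 0.233 for C05E7.3, over 6 libraries in which the group difference dominates. The linker histone-like gene hil-7 went from 16.3, 4.78 and 6.54 CPM to 228.6, 193.8 and 220.3 CPM. The receptor gene aexr-1 went from 0.817, 0.346 and 0.257 CPM to 20.5, 14.6 and 15.4 CPM. Because the measure covers all 6 libraries, a high control replicate 1 is part of the likeness. Of the 5, F09F9.4, Y54E2A.9 and aexr-1 reached the mean of 1 CPM only through the RNAi libraries.

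The position of the 10 genes in the genome was not used to choose them. They lie on chromosomes I (mec-6), III (unc-86, mec-12), IV (mec-3, mec-17) and X (mec-2, mec-4, mec-7, mec-10, mec-18). Of all tested genes, 50.7% on chromosome X were called higher, against 30.0% on I, 28.3% on III and 31.5% on IV. On X, mec-2, mec-7 and mec-10 were called higher and mec-4 and mec-18 were not; both genes on III were called higher and neither gene on IV was. Near mec-17, which was not called, 4 of 8 tested neighbours were called higher and 4 were not called (median log2 0.90). Of the higher ones, frpr-10 and col-115 passed the filter on low counts only through the RNAi libraries. Among the neighbours not called were arf-3 (log2 -0.18) and the cell adhesion gene rig-4 (-0.19). The stomatin-like gene unc-24, which lies 1791 bases from mec-17, rose from 0.763 ± 0.13 to 7.36 ± 1.25 CPM, and deg-1, at 39 bases from mec-7 on the opposite strand, was called higher like mec-7, with a log2 fold change of 0.85.

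Within 20 kb of unc-86, 12 genes were tested, of which 8 were called higher, C50C3.1 and henn-1 lower, and C30A5.3 and C02F5.14 not called. Of the higher genes, C30A5.10, C30A5.16, C30A5.4, C02F5.15 and C02F5.5 were under the filter on low counts in some or all controls. They entered the test only through the RNAi libraries, so the count of 8 partly rests on the group where they were high. Of all tested genes 36.0% were called higher, and 28.3% of those on chromosome III. The neighbours named here, and those named near mec-17 and mec-7, were chosen after their values were seen. Downstream on the same strand, C30A5.10, which begins 2865 bases beyond unc-86, had 16, 5 and 11 reads in the controls and 669, 638 and 892 reads in the RNAi libraries (log2 5.79, adjusted p = 3.44e-06). Upstream on the opposite strand, C30A5.16, 1883 bases away, had 2, 4 and 1 reads against 121, 117 and 114 reads (log2 5.26, adjusted p = 1e-05). Its controls were all under the filter on low counts. Further out, unc-36, a calcium channel subunit gene expressed in neurons and muscle, had a log2 fold change of 2.35 (adjusted p = 4.61e-06), while C30A5.3, between unc-86 and several higher genes, had -0.20 (adjusted p = 0.151). No exon of another gene overlaps the exons of unc-86, and the annotated non-coding genes in its introns had 0 reads in all 6 libraries.

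**Figure D5:**
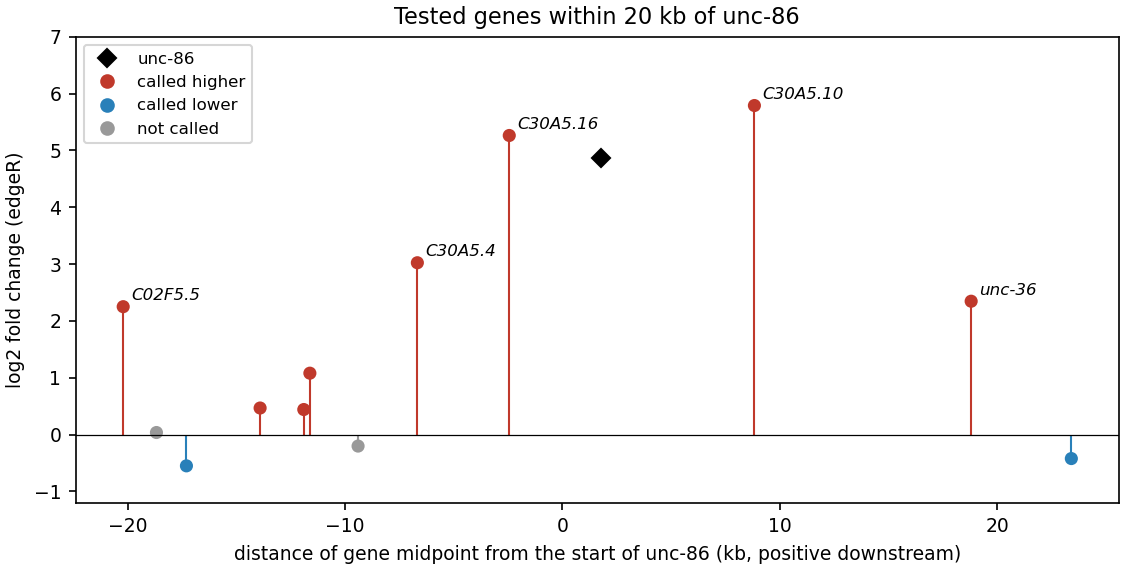
Log2 fold change (edgeR) of the 12 tested genes within 20 kb of unc-86, by the distance of each gene's midpoint from the start of unc-86 in kb, positive downstream; red was called higher, blue lower, grey not called, and the black diamond is unc-86. C30A5.16 and C30A5.10, on either side, have the largest changes (5.26 and 5.79), and most genes further away change less. Both of these named genes passed the filter on low counts only through the RNAi libraries.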

How the data were processed

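RNA-seq of 6 whole-animal samples was analysed (3 control, 3 bcat-1 RNAi, grouped by the agent label). The authors mapped single 50-base reads with TopHat2 2.0.6 to WBcel235 (Ensembl release 74) and deposited the counts of uniquely mapped reads per gene from featureCounts, for which no source used here gives the version or strand setting. The deposited RPKM values were computed by the authors from exon length and all mapped reads. CASAVA is also named in the submitters' processing notes. Gene positions came from Ensembl release 115 of the same build, in which 99.1% of the identifiers were found.

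Counts were tested with edgeR 4.0.16 (quasi-likelihood, TMM, filterByExpr, R 4.3.3), with Benjamini-Hochberg adjustment over 16391 genes and calls under 0.05. Intervals are 95%. The log2 CPM set against pan-neuronal genes used a prior count of 2. Single values were compared by exact two-sided permutation tests (3 against 3, smallest p = 0.1). Alternatives used DESeq2 1.42.0 and limma 3.58.1. The fit was tested on simulated data.

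The 10 genes and all lists were chosen with earlier results of these data known. Named were the 10 genes, bcat-1, up to 4 called genes of largest change per list, close relatives of the 10, and the 5 genes most like unc-86. List counts under other settings, list genes with each library left out and the genes near each of the 10 were added after seeing the data. Genes of the lists not found by name were cha-1, degt-1, delm-1, delm-2 and opt-2. No sequences were used here.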

Additional observations from a re-analysis of the deposited data

How the results depend on the processing

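Of the 10 genes, 5 to 7 were called higher under every alternative, and none was called lower. The 7 came with scaling by library size only and without control replicate 3, which added mec-4, and the 5 with limma on log2(RPKM + 1) for genes with an RPKM of at least 1 in 3 libraries, a filter that left only 6 of the genes in the test. Leaving out 1 library at a time gave log2 fold changes of 4.62 to 5.475 for unc-86, 2.694 to 3.121 for mec-12, 2.576 to 2.908 for mec-7, 1.916 to 2.156 for mec-6, 1.453 to 1.598 for mec-2, 1.278 to 1.507 for mec-10, 0.454 to 1.029 for mec-4 and 0.280 to 0.703 for mec-18. The range was -0.1449 to 0.2817 for mec-3 and -0.1106 to 0.1135 for mec-17, the uncalled genes whose sign turned. That of mec-3 was -0.04069 with DESeq2, -0.02934 without control replicate 2 and -0.1449 without bcat-1 RNAi replicate 1. That of mec-17 was 0.1301 with upper quartile scaling, 0.2381 with library size only, 0.07683 with a filter of 1 CPM in 3 libraries, 0.1818 with limma on log2(RPKM + 1) with and without the RPKM filter, 0.2289 on log2(RPKM + 0.1), 0.04597 without control replicate 2, 0.1135 without bcat-1 RNAi replicate 3, and 0.128 without control replicate 1 and RNAi replicate 3 together. Against the median of the pan-neuronal list in place of its mean, mec-2 differed by -0.1769 and mec-10 by -0.3262, and mec-10 by -0.114 on log2(RPKM + 0.1), -0.03335 without control replicate 2 and -0.1472 without bcat-1 RNAi replicate 3 (from -0.1472 to 0.2524 with 1 library left out). The share of mec-12 differed by -0.05813 percentage points with all libraries, and by 0.9884 without control replicate 1, 0.2047 without control replicate 2, 0.3443 without bcat-1 RNAi replicate 2 and 0.07208 without bcat-1 RNAi replicate 3 (from -1.368 to 0.9884 with 1 library left out). The cause of these turns was not tested. The median log2 fold change of all tested genes was 0.15 with TMM, 0.02 with DESeq2 size factors, 0.28 after upper quartile scaling and 0.39 when only library size was used, and called genes split 5907 higher to 4189 lower with TMM, 5357 to 5014 with DESeq2 size factors, 6614 to 2932 after upper quartile scaling and 7329 to 1952 when only library size was used. With DESeq2 8 other degenerins were called higher. No paired analysis was possible because the sample titles carry a different number for each sample and nothing ties a control sample to an RNAi sample. The levels of mec-3, mec-4 and mec-18 rest on 8 to 75 reads per library, which limits what could be detected.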

Other observations

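Marker genes of tissues other than neurons, cuticle and germ line changed in both directions between samples labelled control and bcat-1 RNAi. Among all tested genes 36.0% were called higher and 25.6% lower. The summed level of 9 intestinal genes was lower without overlap, 26780 to 35930 CPM in the controls and 16240 to 19760 CPM in the RNAi libraries. Such a sum follows the genes with the most reads, and the median log2 fold change of the 9 was -0.26. Of these 9 intestinal genes, 2 were called higher and 4 lower: the yolk protein genes vit-6 (log2 -0.92) and vit-2 (-0.60), the cathepsin gene cpr-6 (-0.73) and the brush border actin gene act-5 (-0.71) were lower, and 3 were not called; the call of vit-2 was lost without any single library other than control replicate 2 or RNAi replicate 3. Of 10 body muscle genes, act-4 (1.19) and unc-22 (0.76) were higher, unc-27 (-0.97), unc-54 (-0.71), pat-10 and unc-15 were lower, and 4 were not called; without control replicate 1 only 2 were lower. Of 10 tested early embryonic genes, 4 were called higher, led by elt-1 (1.33), and 4 lower, led by tbx-38 (-1.75), tbx-37 (-1.43) and pes-10 (-1.28). Control replicate 3 was the highest control for these, and without it tbx-38 was at -1.0 and tbx-37 at -0.78, while vet-6, the fourth, was not called. The summed level of the 13 embryonic genes was 91.6, 74.3 and 159.7 CPM in the controls and 112, 123 and 106.2 CPM in the RNAi libraries, with overlap.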
